A study of Canis lupus familiaris with 29 samples.

Results

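Lymph node RNA taken on Day 4 from pet dogs with large B-cell lymphoma was compared between dogs that later had short and dogs that later had long overall survival. Of the 29 libraries of the series, 14 were Day 4 nodes from 14 dogs, and all 14 were used. The short group held the 7 dogs that lived 343 days or fewer (185 to 343 days), and the long group the 7 dogs that lived 366 days or more (366 to 568 days, with dog MN06 still alive at 568 days). Survival was taken from the sample labels, which give it for each dog. By the paper, dogs left the study at relapse and could then have rescue therapy or join other studies. Survival here thus also covers treatment given later. Day 4 nodes were sampled on day 4 of oral placebo or valspodar, before doxorubicin was started. Valspodar blocks ABCB1, a transporter that pumps drugs out of cells. In the short group 2 dogs had placebo and 5 had valspodar, and in the long group 3 had placebo and 4 had valspodar. The short group had 5 females and 2 males aged 3.8 to 9.9 years (median 6.0). The long group had 2 females, 4 males and 1 dog of unreported sex, aged 4.2 to 11.6 years (median 7.9, 6 dogs with an age). Golden Retrievers numbered 1 in the short and 3 in the long group, the other dogs with a labelled breed were of several breeds, and PENN04 of the long group had none labelled. Dog identifiers begin with MN, PD or PENN, prefixes that the labels do not define. They were spread unevenly, with 6 MN dogs and 1 PD dog in the short group against 2 MN, 2 PD and 3 PENN dogs in the long group, so identifier prefix and survival cannot be told apart well. The Day 0 nodes of the same 14 dogs, taken before treatment, were used for comparison. Wedge biopsies were used at Day 0 and tru-cut biopsies at Day 4.

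Large B-cell lymphoma replaces the normal node with malignant B lymphocytes, but a biopsy also carries macrophages, neutrophils, T cells and connective tissue. Macrophages make the complement C1q chains and lysosomal proteases, neutrophils carry the receptor for granulocyte colony-stimulating factor and secretory granules with gelatinase, and NF-kB is a transcription factor pathway that lymphocytes use for survival and inflammatory signals. Immediate early genes encode transcription factors that cells switch on within minutes of a stimulus, tissue handling included. Expression was given as FPKM (the number of fragments for each kilobase of exon, relative to all fragments mapped) for genes listed by Ensembl identifier. A bulk biopsy cannot tell more cells of a type from more RNA per cell. Symbols could be paired with identifiers for only 23 genes, which the authors had picked for differences on these same samples, so they are not an independent choice. The paper names tests between treatment groups and tests between days. Among 25 gene lists drawn up for this tissue, 7 had a member among the 23 and 18 had none. The B cell list had 0 of its 16 members and the T cell list 0 of its 20, so the tissue label could not be checked against B cell markers.

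The relative sequencing depth of the Day 4 libraries, read from the spacing of low FPKM values with the median library at 1, was 0.288 to 1.49 in the short group and 0.863 to 1.63 in the long group. The lowest, 0.288, was that of MN02 in the short group, and the next lowest in that group was 0.950. All 14 Day 4 libraries resembled the Day 0 library of their own dog more than any library of another dog. This likeness was weakest for MN02 (Spearman correlation across genes 0.918, against 0.911 with its closest other dog) and ranged from 0.924 to 0.984 in the other dogs. Of the Day 0 libraries, 11 of 14 were closest to their own dog's Day 4 library and 3 were closer to a library of another dog. These were MN02 (0.955 with the Day 4 library of MN10 against 0.918 with its own), PENN04 (0.938 with the Day 0 library of MN10 against 0.924) and MN03 (0.948 with the Day 4 library of MN08 against 0.945). Whether the MN02 libraries come from 1 dog was not tested, and results were also computed without it. The share of the summed FPKM held by the 10 highest genes was 40.6% in PENN04 of the long group, 32.7% in PD05 of the long group, and 9.86% to 22.5% in the short group. Day 4 libraries of the same survival group were no more alike (median Spearman correlation across genes 0.902 over 42 pairs) than libraries of different survival groups (0.903 over 49 pairs). These correlations share dogs and are given as a description.

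No gene separated short from long survivors at Day 4 past the adjusted threshold. The fit was limma on log2(FPKM + 1) with treatment group as a covariate and covered the 11677 genes whose mean FPKM over the 29 libraries was 1 or more. After Benjamini-Hochberg adjustment 0 genes (0.0%) had p under 0.05, and the smallest adjusted p was 0.536. Before adjustment 425 genes (3.64%) had p under 0.05, of which 241 were higher and 184 lower in short survivors. The median log2 difference over all genes, short minus long, was -0.01 and the median standard error 0.19. Leaving out 1 dog gave 1 gene past the threshold in 2 cases, without PD01 and without PENN04. These genes, ENSCAFG00000005717 and ENSCAFG00000013740, are described below. With MN02 left out the adjusted count stayed at 0, and 348 genes were under 0.05 before adjustment. Among the 6 dogs whose identifier does not begin with MN, 17 genes (0.146%) passed, all 17 higher in PD01. That fit sets 1 short survivor against 5 long survivors, assumes that PD01 varies like them, and compares 1 dog rather than the groups. An exact permutation test of these dogs cannot go below 0.167. Of the 23 genes with a symbol, 0 passed there, and 5 had an unadjusted limma p under 0.05, all 5 lower in PD01, where 4.53% of all genes had one. They were DNASE1L3, PLAU, CD5L, IL18 and ICAM1.

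**Figure D1:**
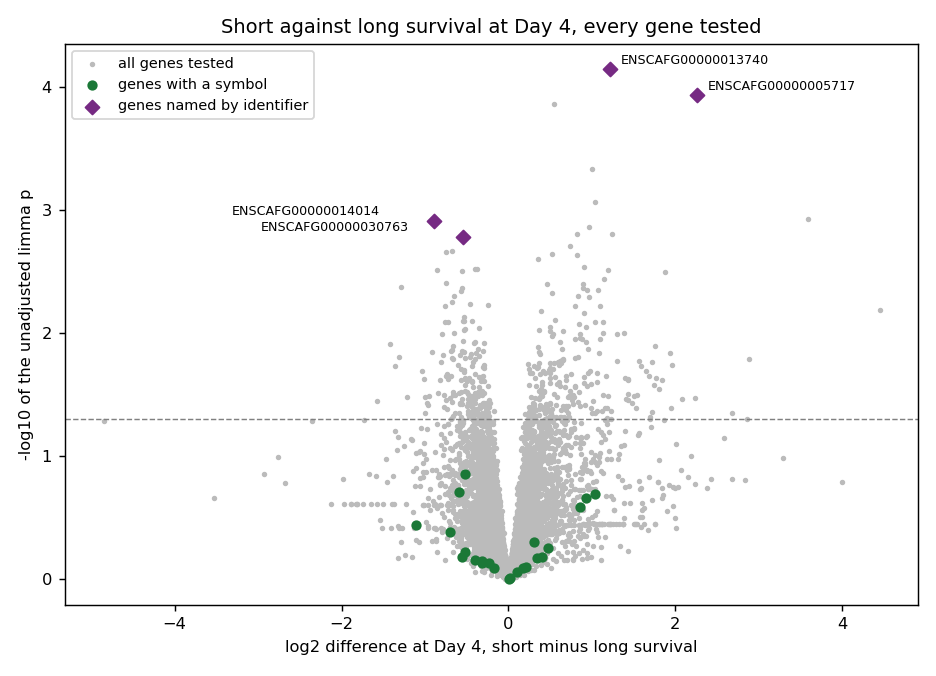
Each point is a gene tested at Day 4, with the log2 difference in FPKM + 1 (short minus long survival, 7 dogs each) on the horizontal axis and -log10 of the unadjusted limma p on the vertical axis; the dashed line marks an unadjusted p of 0.05. The 23 genes with a symbol (green) all lie under the line, and the 4 genes named by identifier (purple diamonds) lie above it, the 2 higher in short survivors near the top of the plot and the 2 lower ones further down.

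Of the 23 genes with a symbol, 12 had a higher and 11 a lower mean log2 level in short survivors, and 0 had an unadjusted p under 0.05, where 3.64% of all genes did. Their log2 differences ran from -1.11 for EEF1A1 to 1.04 for SERPINA1, with a median of 0.01. Their median standard error was 0.77, against 0.19 over all genes, and their levels varied strongly from dog to dog. Single dogs set the extremes within each group. MN03 had the highest level among the 7 short survivors for 12 of the 23 genes, while PD01 and MN10 had the lowest for 9 each. In the long group PENN03 was highest for 8, PENN04 for 7 and PD05 for 7, and MN06 was lowest for 8. High levels of the same genes were thus found in dogs of either survival group. Beside limma, each gene was tested by an exact permutation of the survival labels over the dogs (two-sided, on mean log2 levels without the covariate), whose smallest possible p with 14 dogs is 0.000583. These p were computed after those of limma and are not adjusted for the number of genes.

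**Figure D2:**
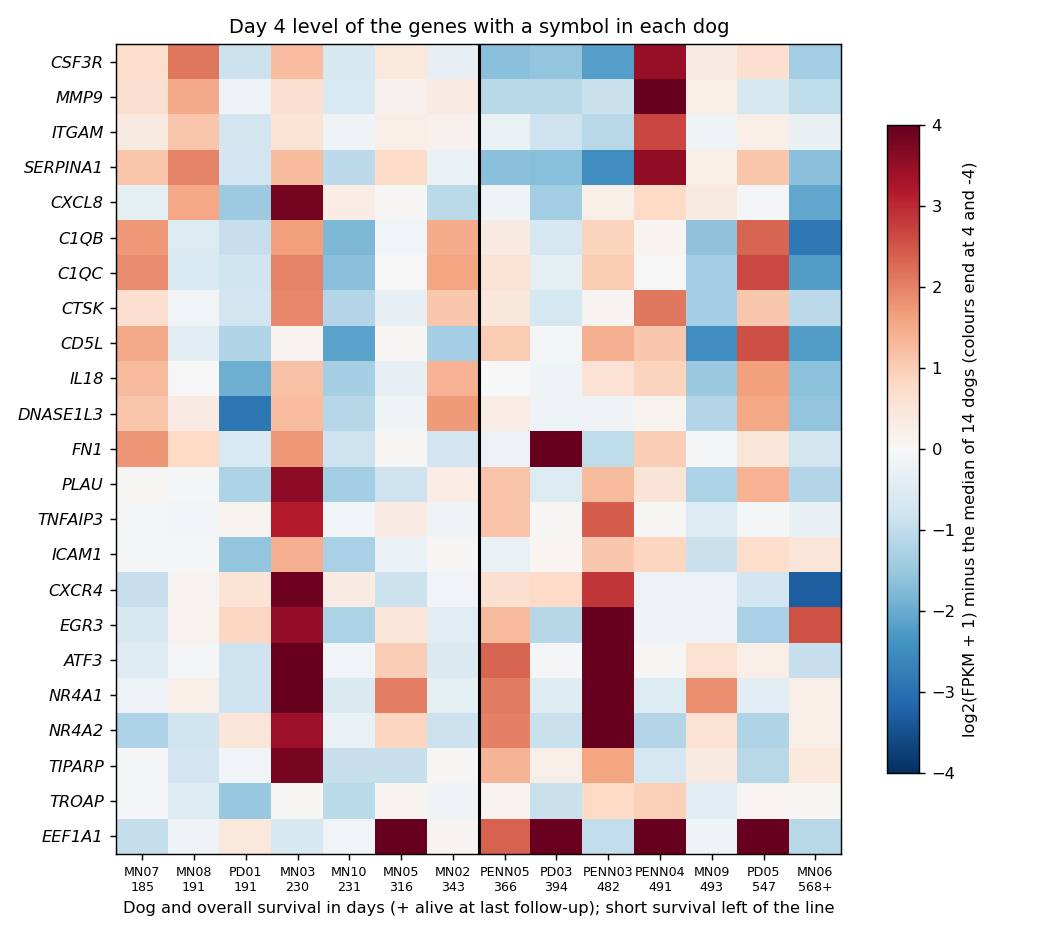
Rows are the 23 genes with a symbol and columns the 14 dogs in order of overall survival in days, with short survival left of the line; colour is the Day 4 log2(FPKM + 1) minus the median of the 14 dogs, with colours ending at 4 and -4. The neutrophil genes in the top 4 rows are reddest in PENN04, and the rows from CXCR4 to NR4A2 are reddest in MN03 and PENN03, which belong to different survival groups.

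**Figure D3:**
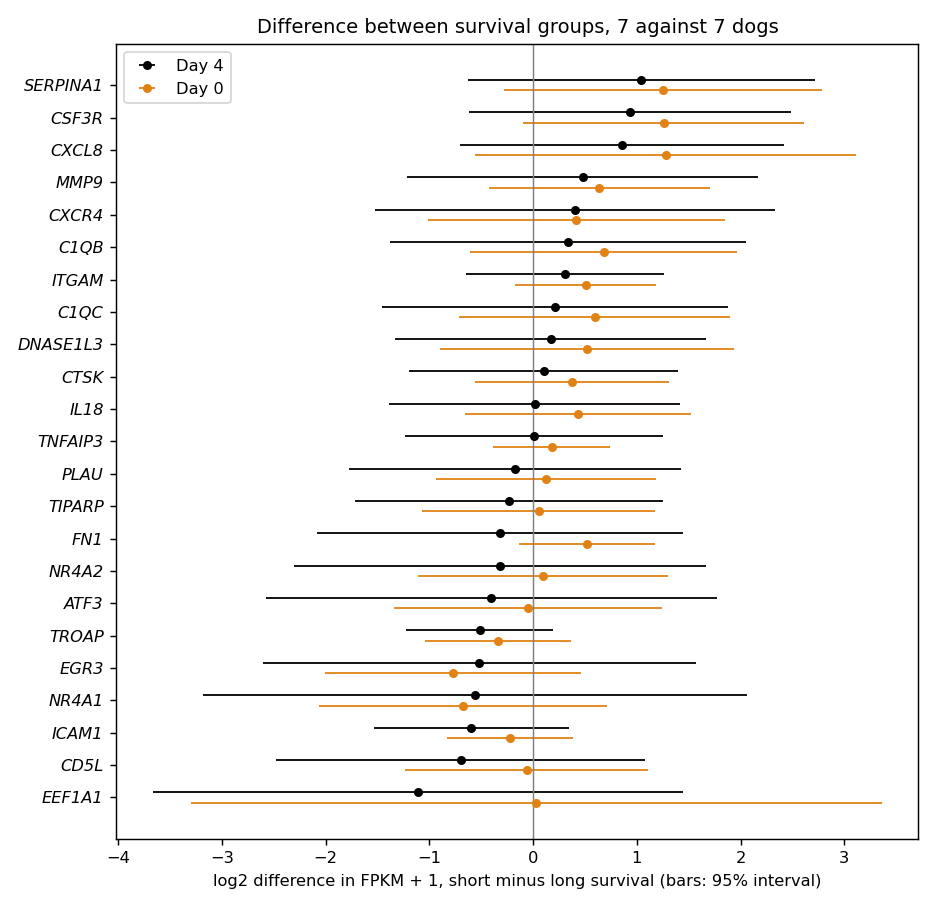
Points are log2 differences in FPKM + 1, short minus long survival, for the 23 genes with a symbol at Day 4 (black) and at Day 0 (orange), 7 against 7 dogs, and bars are 95% intervals from limma. Every interval crosses 0 on both days, and SERPINA1, CSF3R and CXCL8 have the highest differences on both.

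Of the 13 members of the neutrophil list 4 were measured with a symbol, and all 4 had a higher mean log2 level in short survivors, although 0 of the 4 passed the test. Over all genes tested the log2 difference was positive for 5546 and negative for 6100. The 4 genes share their highest dogs, MN08 in the short and PENN04 in the long group. Their median log2 difference was 0.70, against -0.01 over all genes. CSF3R, the receptor for granulocyte colony-stimulating factor, was at 2.65 to 27.5 FPKM in short survivors (median 7.84) and at 0.445 to 72.8 FPKM in long survivors (median 1.55). All 7 short survivors lay above the median of the long group, but PENN04 of the long group was above all of them. How many of all genes have such a count was not tested. NR4A2 at Day 0 had it with a log2 difference of only 0.0963. The log2 difference was 0.93 (standard error 0.72, 95% interval -0.62 to 2.48, limma adjusted p = 1.0, exact permutation p = 0.427).

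SERPINA1, the protease inhibitor alpha-1-antitrypsin, which myeloid cells also make, was at 4.63 to 44.8 FPKM in short survivors (median 18.7) and at 1.07 to 134 FPKM in long survivors (median 2.63). Again 7 of 7 short survivors exceeded the long median, and the long group reached both further down and further up. Short minus long, the log2 difference came to 1.04 (standard error 0.78, 95% interval -0.63 to 2.71, limma adjusted p = 1.0, exact permutation p = 0.390). MMP9, the gelatinase of neutrophil granules, was at 0.885 to 7.13 FPKM in short survivors (median 2.54). In long survivors it was at 0.317 to 2.37 FPKM in 6 dogs and at 111 FPKM in PENN04 (median of 7 dogs 0.527). As with SERPINA1, every short survivor was above the long median, and the log2 difference was 0.48 (standard error 0.78, 95% interval -1.21 to 2.17, exact permutation p = 0.894). ITGAM, the integrin chain of complement receptor 3 on neutrophils and macrophages, was at 0.441 to 4.12 FPKM in short survivors (median 1.83) and 0.116 to 14.3 FPKM in long survivors (median 0.994). Of the short survivors 6 of 7 exceeded the long median, and the log2 difference was 0.31 (standard error 0.44, 95% interval -0.64 to 1.26, exact permutation p = 0.789).

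Dog PENN04 of the long group was the highest of all 14 dogs for each of the 4 genes, at 72.8, 134, 111 and 14.3 FPKM for CSF3R, SERPINA1, MMP9 and ITGAM. Without it, the log2 differences were 1.38 for CSF3R, 1.504 for SERPINA1, 1.14 for MMP9 and 0.63 for ITGAM. All 4 then had an unadjusted limma p under 0.05, where 3.06% of all genes did, and each adjusted p was 1.0, so none passed over all genes tested. PENN04 was the highest dog for all 4 genes, so leaving it out had to raise their differences. The p without it, the exact ones included, are therefore a description. The 4 genes also vary together over the dogs and are not 4 separate results. The exact permutation test over the 13 dogs, whose smallest possible p is 0.000583, gave p = 0.00932 for MMP9, 0.0559 for CSF3R, 0.0618 for SERPINA1 and 0.0705 for ITGAM. With both MN02, the shallowest library, and PENN04 left out, a choice made after seeing the data, the exact permutation p was 0.0152 for MMP9, 0.0541 for CSF3R, 0.0693 for SERPINA1 and 0.0801 for ITGAM. Leaving out PENN05 of the long group instead lowered the differences, to 0.59 for CSF3R, 0.69 for SERPINA1 and 0.14 for MMP9, and leaving out PENN03 lowered ITGAM to 0.16. PENN04 was also the dog with the most FPKM in few genes and the only one with no reported sex or age, and the part of its library in these differences was not tested beyond leaving it out.

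Within the treatment groups the neutrophil genes gave mixed results. In the valspodar dogs, which do not include PENN04, MMP9 was at 0.885 to 3.43 FPKM in the 5 short survivors and at 0.329 to 0.830 FPKM in the 4 long survivors. These ranges did not overlap, which held for 1.13% of all genes in these dogs, and the log2 difference of 1.08 had an exact permutation p = 0.0159 (smallest possible 0.00794, limma adjusted p = 1.0). The highest long survivor, at 0.830 FPKM, was close to the lowest short survivor, at 0.885 FPKM. Both values, and so all 4 long survivors, were under the 1 FPKM of the filter. MMP9 was the one gene of the 23 with an unadjusted limma p under 0.05 in these dogs, where 3.87% of all genes had one. CSF3R in the same dogs was at 2.65 to 14.5 FPKM against 0.445 to 9.60 FPKM (exact permutation p = 0.151). SERPINA1 and ITGAM there had log2 differences of 1.24 and 0.52 (exact permutation p = 0.190 for each). In the placebo dogs, with 2 short and 3 long survivors, MMP9 was at 2.2 and 7.13 FPKM in the short survivors and at 0.317 to 111 FPKM in the long survivors, and its log2 difference was -0.64. In the same placebo dogs the log2 differences were 0.54 for CSF3R, 0.67 for SERPINA1 and -0.0788 for ITGAM. Among MN dogs alone, 6 short and 2 long survivors, CSF3R was at 3.26 to 27.5 FPKM against 1.55 to 7.39 FPKM, a log2 difference of 1.30 (exact permutation p = 0.250, smallest possible 0.0357). Of the dogs with other prefixes only PD01 was a short survivor, and it was set against the 5 long survivors, PENN04 among them, in an alternative chosen after seeing the data. There the 4 genes had the opposite sign, with log2 differences of -0.60 for CSF3R, -0.52 for SERPINA1, -0.48 for MMP9 and -0.88 for ITGAM.

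**Figure D4:**
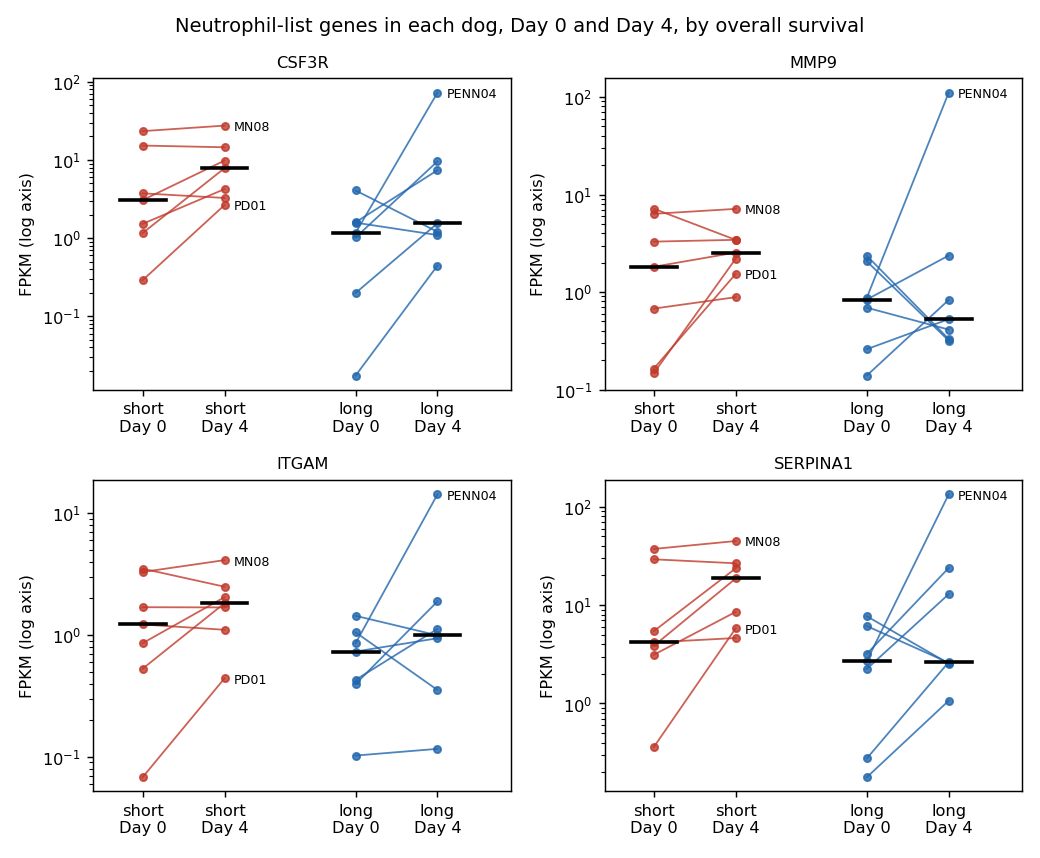
Each line joins the Day 0 and Day 4 FPKM (log axis) of 1 dog, red for the 7 short and blue for the 7 long survivors, and black bars are group medians. Short survivors have the higher median for each of CSF3R, MMP9, ITGAM and SERPINA1 on both days, and PENN04 goes from within the long group at Day 0 to the top of the plot at Day 4.

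CXCL8, the chemokine that attracts neutrophils, was at 1.44 to 94.9 FPKM in short survivors (median 5.95) and at 0.574 to 10.6 FPKM in long survivors (median 5.47). The medians were close, and 2 short survivors, MN03 at 94.9 and MN08 at 18.4 FPKM, were above every long survivor. The log2 difference was 0.86 (standard error 0.72, 95% interval -0.70 to 2.42, exact permutation p = 0.396), and without MN03 it was 0.28.

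Macrophage genes did not separate the survival groups. Of the 17 members of the list 4 were measured with a symbol, 3 with a higher and 1 with a lower mean log2 level in short survivors, 0 of them at an unadjusted p under 0.05, and their median log2 difference was 0.15. C1QB, a chain of the complement component C1q, was at 9.10 to 117 FPKM in short survivors (median 31.4) and at 3.88 to 177 FPKM in long survivors (median 37.2). The groups overlapped over nearly their whole range, with MN07 and MN03 high in the short group and PD05 highest of all in the long group. In limma the log2 difference was 0.34 (standard error 0.80, 95% interval -1.38 to 2.06, exact permutation p = 0.624). C1QC, a partner chain of the same complex, was at 19.9 to 263 FPKM against 13.1 to 415 FPKM, with a log2 difference of 0.21 (95% interval -1.46 to 1.88). CTSK, the collagen-degrading protease cathepsin K, was at 19.4 to 172 FPKM against 17.2 to 198 FPKM, with a log2 difference of 0.10 (95% interval -1.20 to 1.40). CD5L, a secreted protein of tissue macrophages, was the one member lower in short survivors, with medians of 9.31 FPKM (2.16 to 38.7) and 27.4 FPKM (1.49 to 83.2). Of the short survivors 1 of 7 exceeded the long median, and the log2 difference was -0.70 (standard error 0.83, 95% interval -2.48 to 1.08, exact permutation p = 0.433). It was -0.22 without PD05 and -1.20 without MN06, both of the long group. The direction turned with MN prefix as a covariate (0.46) and among MN dogs (2.01).

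The groups also overlapped for IL18, DNASE1L3 and PLAU, which are on none of the lists. IL18, an inflammatory cytokine, had medians of 11.95 FPKM in short and 12.1 FPKM in long survivors, and a log2 difference of 0.01 (95% interval -1.39 to 1.42). DNASE1L3, a secreted nuclease of macrophages and dendritic cells, was at 9.70 to 257 FPKM in short and 25.6 to 231 FPKM in long survivors, and its log2 difference was 0.17 (95% interval -1.33 to 1.67). PLAU, the urokinase protease, was at 0.968 to 59.8 FPKM in short survivors, all but MN03 at 5.23 FPKM or below, and at 1.12 to 12.3 FPKM in long survivors. The medians were 3.96 and 6.23 FPKM, and MN03 was the 1 of 7 short survivors above the long median. Its log2 difference was -0.18 (95% interval -1.78 to 1.43), and 1.37 among MN dogs. Among the MN dogs alone, C1QB, IL18 and DNASE1L3 were higher in the 6 short than in the 2 long survivors, with log2 differences of 2.55, 1.83 and 1.83 (limma adjusted p = 0.867 and exact permutation p = 0.0714 for each). These were the 3 genes of the 23 with an unadjusted limma p under 0.05 in that fit, where 5.74% of all genes had one. C1QB was at 9.10 to 117 FPKM in these short survivors and at 3.88 and 10.6 FPKM in the long survivors MN06 and MN09. With PD01 against the 5 long survivors of other prefixes the sign was the opposite, with log2 differences of -1.54 for C1QB, -2.54 for IL18 and -3.23 for DNASE1L3.

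The immediate early genes were highest in 1 dog of each survival group. Of the 16 members of the immediate early and stress list 4 were measured with a symbol, all 4 had a lower mean log2 level in short survivors (median log2 difference -0.46), and 0 had an unadjusted p under 0.05. NR4A1, an orphan nuclear receptor induced within minutes of receptor stimulation, was at 0.877 to 109 FPKM in short survivors (median 1.85) and at 1.28 to 316 FPKM in long survivors (median 3.01). MN03 in the short group and PENN03 in the long group held the 2 highest values, and the next in each group were 12.8 FPKM in MN05 and 13.1 FPKM in PENN05. The log2 difference of -0.56 (standard error 1.21, 95% interval -3.18 to 2.06, exact permutation p = 0.649) was 0.51 without PENN03. NR4A2, its relative, was at 2.17 to 79.5 FPKM against 2.24 to 124 FPKM, with the same 2 dogs at the top and a log2 difference of -0.32 (95% interval -2.31 to 1.67). ATF3, a stress-induced transcription factor, was at 0.253 to 72.9 FPKM against 0.176 to 48.0 FPKM, with a log2 difference of -0.40 (95% interval -2.58 to 1.77). EGR3, a zinc finger factor induced by antigen receptor signals, was at 0.637 to 44.1 FPKM against 0.630 to 99.98 FPKM, with a log2 difference of -0.52 (95% interval -2.61 to 1.56). For NR4A2, ATF3 and EGR3 too the sign turned when PENN03 was left out, to 0.39, 0.30 and 0.22. With MN03 left out instead, the differences were -1.23 for NR4A1, -0.81 for NR4A2 and -1.10 for ATF3. Among the stress genes outside the list, TIPARP, a mono-ADP-ribosyltransferase that is a target of the aryl hydrocarbon receptor, was at 172 FPKM in MN03 and at 5.58 to 11.9 FPKM in the other short survivors, against 4.73 to 36.4 FPKM in long survivors. Its log2 difference was -0.23 (95% interval -1.71 to 1.25), and 1 of 7 short survivors exceeded the long median of 14.9 FPKM. Without MN03 the difference was -0.77, and without PENN05 it was -0.0171.

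NF-kB genes followed the same dogs. Of the 22 members of the activated B cell and NF-kB list 2 were measured with a symbol, and their median log2 difference was -0.29, with 0 at an unadjusted p under 0.05. TNFAIP3, the deubiquitinase A20 that restrains NF-kB, had medians of 10.6 FPKM in short and 11.2 FPKM in long survivors, with MN03 at 105 and PENN03 at 63.1 FPKM. The log2 difference was 0.01 (standard error 0.57, 95% interval -1.23 to 1.25, exact permutation p = 0.902). ICAM1, an adhesion molecule induced by NF-kB, was at 5.07 to 48.3 FPKM in short survivors (median 16.2) and at 8.86 to 37.0 FPKM in long survivors (median 24.6). Only MN03 among the short survivors exceeded the long median, and it exceeded every long survivor. On the log2 scale the difference was -0.60 (standard error 0.44, 95% interval -1.54 to 0.35, exact permutation p = 0.253), and without MN03 it was -0.85 (limma adjusted p = 1.0, exact permutation p = 0.0606). It was then the 1 gene of the 23 with an unadjusted limma p under 0.05, where 3.46% of all genes had one. Without PD01 it was -0.37. CXCR4, a chemokine receptor of lymphocytes, was at 651 FPKM in MN03 and 317 FPKM in PENN03. In the other dogs it was at 22.2 to 64.3 FPKM in the short and at 3.54 to 73.6 FPKM in the long group, and the log2 difference was 0.40 (95% interval -1.52 to 2.33).

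TROAP, a protein of the mitotic spindle on the cell division list, had the smallest p of the 23 genes at Day 4. It was at 5.98 to 20.5 FPKM in short survivors (median 16.5) and at 9.69 to 38.0 FPKM in long survivors (median 20.1). Of the short survivors 1 of 7 exceeded the long median, and PD01 and MN10 lay at the lower end. The log2 difference was -0.52 (standard error 0.33, 95% interval -1.22 to 0.19, limma adjusted p = 1.0, exact permutation p = 0.127). It was the only member of the 20 on that list with a symbol, so nothing was measured here about dividing cells as a group.

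FN1, the matrix protein fibronectin, is the one gene with a symbol here out of the 6 genes of a predictor of survival in human large B-cell lymphoma. It was at 0.328 to 7.01 FPKM in short survivors (median 1.44) and at 0.170 to 58.7 FPKM in long survivors (median 1.27). The 58.7 FPKM of PD03 stood apart, and the next long survivor, PENN04, was at 3.65 FPKM. Short minus long, the log2 difference came to -0.32 (standard error 0.82, 95% interval -2.08 to 1.45, exact permutation p = 0.790), and without PD03 it was 0.49. EEF1A1, a translation elongation factor whose family holds nearly identical copies that can share reads, fell into high and low dogs. It was at 207 FPKM in MN05 and at 1.60 to 5.80 FPKM in the other short survivors, and in long survivors at 1.32 to 189 FPKM (median 24.7). Its log2 difference of -1.11 was the lowest of the 23, with a standard error of 1.18 (95% interval -3.67 to 1.44). Without MN05 it was -2.06, and without PD05 of the long group it was -0.31. The sign turned with MN prefix as a covariate (0.36) and among MN dogs (1.65).

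Among the genes without a symbol, the 2 with the smallest limma p in either direction were chosen after their values were seen, so the values below are a description. ENSCAFG00000013740 was at 1.60 to 3.32 FPKM in short survivors (median 1.75) and at 0.0705 to 1.90 FPKM in long survivors (median 0.333). All 7 short survivors were above 6 of the 7 long survivors, whose next highest value was 0.448 FPKM, and PENN04 at 1.90 FPKM was the exception. The mean was 2.15 FPKM in the short and 0.470 FPKM in the long group, so the gene passed the filter of 1 FPKM only through the short survivors and its difference is no independent support. The log2 difference was 1.22 (standard error 0.21, 95% interval 0.75 to 1.68, limma adjusted p = 0.536), and without PENN04 it was 1.35 with an adjusted p of 0.0243, and over all alternatives the adjusted p ran from 0.0243 to 1.0. With a pseudocount of 0.1 in place of 1 the difference was 2.64. The MN dogs, part of the dogs the gene was chosen on, were at 1.60 to 2.78 FPKM in 6 short survivors and at 0.333 and 0.367 FPKM in 2 long survivors.

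ENSCAFG00000005717 was at 2.76 to 10.1 FPKM in 6 short survivors, at 0.437 FPKM in PD01, and at 0.0340 to 0.512 FPKM in the 7 long survivors. PD01 lay inside the range of the long group and the other 6 short survivors lay above all of it. The means were 6.14 FPKM in the short and 0.233 FPKM in the long group, and at Day 0 they were 7.96 and 0.463 FPKM. In the 14 dogs of the fit only the mean of the short group was thus above the filter level, and the difference is no independent support. In limma the log2 difference was 2.26 (standard error 0.42, 95% interval 1.35 to 3.16, limma adjusted p = 0.536), and without PD01 it was 2.57 with an adjusted p of 0.00763, the lowest over the alternatives, where it reached 1.0. With a pseudocount of 0.1 the difference was 3.88. All 6 of the high dogs were MN dogs, and the 2 MN dogs of the long group were at 0.0340 and 0.210 FPKM.

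ENSCAFG00000014014 was lower in short survivors, at 2.92 to 6.55 FPKM (median 3.92) against 4.74 to 12.3 FPKM (median 8.16). MN02 was the highest short survivor and MN06 the lowest long survivor, and the other 6 short survivors lay below every long survivor. The log2 difference was -0.89 (standard error 0.22, 95% interval -1.36 to -0.42, limma adjusted p = 1.0), but among MN dogs it was -0.34. ENSCAFG00000030763 was at 7.84 to 13.4 FPKM in short and at 11.2 to 21.1 FPKM in long survivors, with 3 short survivors below the whole long group. Its log2 difference was -0.55 (standard error 0.14, 95% interval -0.85 to -0.25, limma adjusted p = 1.0). The ranges of the 2 groups overlapped for each of these 4 genes, while 3 other genes of all those tested (0.0257%) had ranges at Day 4 that did not overlap.

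**Figure D5:**
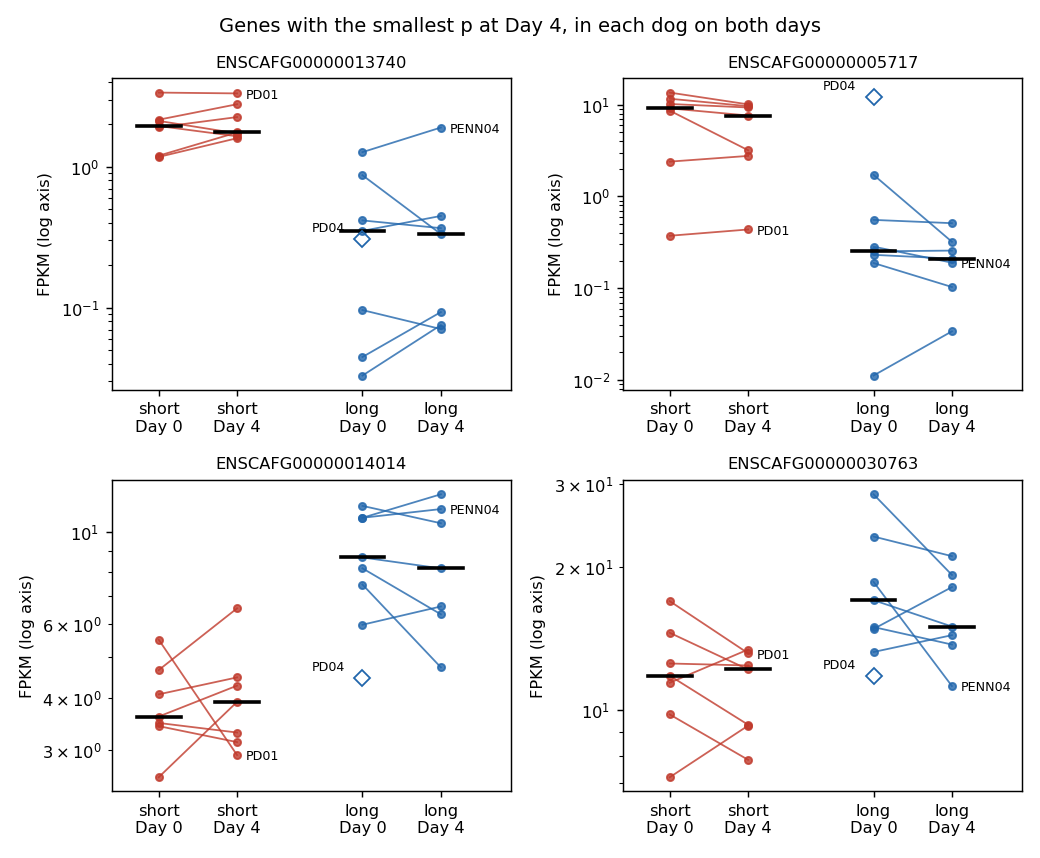
Each line joins the Day 0 and Day 4 FPKM (log axis) of 1 dog for the 4 genes named by identifier, red for 7 short and blue for 7 long survivors, black bars are group medians, and the open diamond is PD04, a long survivor with a Day 0 library only. Short and long survivors differ on both days by similar amounts, and PD04 lies among the short survivors for 3 of the 4 genes.

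The same contrast was made in the Day 0 nodes of the same dogs, to see whether the Day 4 differences were there before treatment. At Day 0, 0 of 11677 genes (0.0%) passed the adjusted threshold, the smallest adjusted p was 0.105, and 3.31% of genes (387) were under 0.05 before adjustment. Leaving out PD01 let 2 genes pass, ENSCAFG00000005717, with the same limit as at Day 4 (log2 difference 2.73, limma adjusted p = 0.0355), and ENSCAFG00000014014 (-1.12, limma adjusted p = 0.0432). ENSCAFG00000014014 had the smallest p at Day 0, at 2.59 to 5.52 FPKM in short and 5.99 to 11.5 FPKM in long survivors (log2 difference -1.07, standard error 0.15, limma adjusted p = 0.105). Its ranges did not overlap at Day 0, which held for 0.0257% of all genes. ENSCAFG00000005717 had a log2 difference of 2.35 and ENSCAFG00000013740 one of 1.09 at Day 0, beside 2.26 and 1.22 at Day 4. A dog's 2 libraries share its germline and its tumour, so the days are not independent of each other.

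PD04, a placebo dog that lived 508 days, had no Day 4 library and took no part in these fits. Its Day 0 node had 11.97 FPKM of ENSCAFG00000005717, where the other long survivors reached 1.72 FPKM, and 4.47 FPKM of ENSCAFG00000014014, below every other long survivor. ENSCAFG00000030763, at 11.8 FPKM, was likewise below the other long survivors, whose lowest value was 13.3 FPKM. Its level of ENSCAFG00000013740, 0.307 FPKM, was within the range of the long group.

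The neutrophil genes were also higher in short survivors on average at Day 0, with 4 of 4 positive log2 differences (median 0.94) and 0 of 4 at an unadjusted p under 0.05. CSF3R was at 0.289 to 23.4 FPKM in short survivors (median 3.06) and at 0.0174 to 4.07 FPKM in long survivors (median 1.16). Its log2 difference of 1.26 (standard error 0.63, 95% interval -0.10 to 2.61, exact permutation p = 0.108) was the largest of the 4, and MN08 at 23.4 and MN03 at 15.3 FPKM lay above every long survivor. Differences for SERPINA1, MMP9 and ITGAM at Day 0 were 1.25, 0.64 and 0.51 on the log2 scale. Without MN08 the Day 0 differences were 0.77 for CSF3R, 0.82 for SERPINA1, 0.33 for MMP9 and 0.33 for ITGAM, and without MN05 that of MMP9 was 1.01. The Day 0 node of PD04 had 7.79 FPKM of CSF3R, 7.56 FPKM of MMP9, 3.82 FPKM of ITGAM and 15.4 FPKM of SERPINA1, each above the other long survivors of that day. Over the 23 genes, 17 had a positive and 6 a negative log2 difference in limma at Day 0, with a median of 0.38 and 0 at an unadjusted p under 0.05. Over all genes tested 5581 had a positive and 6016 a negative one, with a median of -0.0055.

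The change from Day 0 to Day 4 within each dog was then compared between short and long survivors. Again 0 of 11677 genes (0.0%) passed the adjusted threshold, while before adjustment 345 (2.95%) were under 0.05. Leaving out MN09 made that 711. Of the 23 genes 2 had a positive and 21 a negative limma difference in change, short minus long. Their median was -0.33 on the log2 scale, with 0 at an unadjusted p under 0.05. Over all genes tested 5913 were positive and 5763 negative, with a median of 0.0026. Many of the 23 genes share their highest dogs, so their signs are not separate results. CSF3R went up from Day 0 to Day 4 in 5 of 7 short and 5 of 7 long survivors, with median log2 changes of 1.05 and 1.09. The difference between these changes was -0.33 (standard error 0.86, 95% interval -2.17 to 1.52, exact permutation p = 0.624), and 0.17 without PENN04, whose CSF3R changed by 5.09 on the log2 scale. For SERPINA1, MMP9 and ITGAM the differences in change were -0.21, -0.16 and -0.20, and without PENN04 they were 0.31, 0.52 and 0.12. TROAP went up in 6 of 7 dogs of either group, with median log2 changes of 0.54 and 0.52. FN1 was also higher in 6 of 7 dogs of either group, with PD03 changing by 5.03 on the log2 scale. The genes with a symbol come from the authors' own tests on these samples, tests between days among them. These rises are thus no independent result. Day also goes with biopsy type, wedge at Day 0 and tru-cut at Day 4. For ENSCAFG00000013740, ENSCAFG00000005717, ENSCAFG00000014014 and ENSCAFG00000030763 the differences in change were 0.12, -0.10, 0.18 and 0.08.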

How the data were processed

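RNA sequencing of lymph node biopsies from 15 dogs was used. According to the labels and methods, the authors trimmed reads with Trimmomatic 0.33, mapped them to CanFam3 with HISAT2 2.0.2, quantified them with Cuffquant and normalized them with Cuffnorm (Cufflinks 2.2.1), and deposited FPKM values per gene and library, without pooling. Read counts are not part of these values, and neither count tests nor counting intervals were made; low values also depend on depth. Of the table's sample columns, 0 were left without a sample.

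Groups came from the labelled overall survival. Values were tested as log2(FPKM + 1) with limma 3.58.1 in R 4.3.3 (lmFit, eBayes with trend), for genes whose mean was 1 FPKM or more, with Benjamini-Hochberg adjustment, a threshold of 0.05 and treatment as a covariate. A pseudocount of 1 understates changes of low genes. The change between days was fitted on each dog's Day 4 minus Day 0 value. Both libraries come from the same dog, and across genes their deviations from the group means had a median r of 0.506 (0.174 to 0.661 over 14 dogs). The fits were tested on simulated data. Each dog is 1 replicate. Single genes were also tested by exact permutation of survival over dogs, two-sided and without the covariate, a test added after limma's p were seen; these p are not adjusted.

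The rule named, in each direction and list, the genes with a symbol and the smallest p, which covered all 23; the symbols come from the paper's supplement. Members and lists were chosen with earlier results of these data known. The 4 genes named by identifier are outside the rule. Alternatives were other pseudocounts, filters, scalings, covariates, subsets and each dog left out. Python 3.11.15, pandas 2.3.3 and matplotlib 3.10.9 were used for summaries and plots.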

Additional observations from a re-analysis of the deposited data

Results flagged for a closer look

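Values of the 7 dogs of a survival group at Day 4 were searched for 1 dog far from the rest, by the gap to its nearest neighbour over the whole range (Dixon's ratio, 95% critical value 0.568), on log2(FPKM + 1) for genes. Of 60 sets 13 had such a dog, where chance flags about 1 in 20 (3.0) of independent sets. These sets share dogs and are mostly genes picked for their values on these samples, so that number is no reference for them.

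In short survivors MN03 stood far above the others for TNFAIP3 (ratio 0.847), TIPARP (0.794), CXCR4 (0.690), ATF3 (0.690) and PLAU (0.664), and MN05 for EEF1A1 (0.781). In long survivors PENN04 stood far above the others for MMP9 (0.789), ENSCAFG00000013740 (0.697) and ITGAM (0.637), PENN03 for NR4A1 (0.631) and PD03 for FN1 (0.649). The summed FPKM of MN02 was far above that of the other short survivors (0.629), and the relative depth of PD05 far above that of the other long survivors (0.769).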

How the results depend on the processing

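Depth cannot be read as reads from FPKM, the groups hold 7 dogs each, and identifier prefix goes with survival; these limit every result. With a pseudocount of 0.1, other filters, quantile normalization, median-ratio scaling, robust eBayes, no treatment covariate, MN prefix, sex or age as a covariate, ranked survival, or MN, valspodar or placebo dogs only, the count of genes past the adjusted threshold stayed at 0 wherever it was run. Leaving out 1 dog, it ranged from 0 to 1 at Day 4, from 0 to 2 at Day 0 and was 0 for the change; it was 1 at Day 4 with both MN02 and PENN04 left out, an alternative chosen after seeing the data, as were placebo dogs only and dogs other than MN only. In the last, PD01 alone against 5 long survivors with the spread taken from those 5, 17 genes passed, all higher in PD01. The change within dogs was also fitted without the dog as a block, which gave 0 genes past the threshold and 43 at an unadjusted p under 0.05, against 345. At Day 4 that unadjusted count was 658 without the filter on low genes (3.51% of 18757 genes, against 3.64% of 11677), 670 in MN dogs, 246 for ranked survival, 260 with age as a covariate (which also leaves out PENN04, a dog of no reported age, and 357 genes were counted without PENN04 alone), 265 in placebo dogs and 282 without MN02 and PENN04, against 425; with MN prefix as a covariate 122 genes were higher and 164 lower in short survivors. Without the filter it was 617 at Day 0 and 613 for the change, each of 18757 genes. A pseudocount of 0.1 raised the Day 4 log2 difference of MMP9 to 1.14 and of ITGAM to 0.75. At Day 0 it gave 1.96 for CSF3R and 0.84 for ITGAM. For the change it gave -0.63 for CSF3R, -0.43 for SERPINA1 and, nearer to no difference, -0.0882 for ITGAM.

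For single genes, 1062 log2 differences under an alternative kept their sign and their side of the threshold, 5 passed it and 101 changed sign; the cause was not tested. At Day 4 the sign changed in MN dogs for NR4A1 (0.0552), ATF3 (0.96), FN1 (0.88), EEF1A1 (1.65), PLAU (1.37), CD5L (2.01) and ICAM1 (0.0698), and with MN prefix as a covariate for EEF1A1 (0.36), PLAU (0.19) and CD5L (0.46). With age as a covariate and PENN04 left out it changed for DNASE1L3 (-0.17), TIPARP (0.0347), FN1 (0.42), C1QC (-0.14) and IL18 (-0.17), with sex as a covariate and PENN04 left out for TNFAIP3 (-0.0323), and with quantile normalization for TNFAIP3 (-0.0119). Of these 6 genes, TNFAIP3 (-0.0140) changed sign with PENN04 alone left out. Per rank of survival it changed for TIPARP (0.0138), ATF3 (0.000902), FN1 (0.0453) and PLAU (0.0104), in valspodar dogs for TIPARP (0.28) and PLAU (0.0289), and without MN02 and PENN04 for DNASE1L3 (-0.0521) and IL18 (-0.0162). In placebo dogs it changed for TNFAIP3 (-0.10), CXCR4 (-0.44), NR4A1 (0.0125), EGR3 (0.00241), MMP9 (-0.64), CTSK (-0.64), FN1 (0.19), EEF1A1 (0.53), C1QC (-0.0322) and ITGAM (-0.0788). With PD01 against the 5 long survivors other than MN it changed for TNFAIP3 (-0.59), CXCL8 (-1.35), CSF3R (-0.60), CXCR4 (-0.0909), DNASE1L3 (-3.23), EGR3 (0.16), MMP9 (-0.48), CTSK (-1.33), C1QC (-1.56), ITGAM (-0.88), SERPINA1 (-0.52), IL18 (-2.54) and C1QB (-1.54). For the change between days it changed with a pseudocount of 0.1 for MMP9 (0.29) and ENSCAFG00000005717 (0.10), and with MN prefix as a covariate for MMP9 (0.42), ITGAM (0.0300) and ENSCAFG00000030763 (-0.12).

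Leaving out 1 dog turned the sign of further differences. At Day 4 these ranged from -0.40 to 0.39 for TNFAIP3, -0.29 to 0.95 for CXCR4, -1.23 to 0.51 for NR4A1, -0.12 to 0.63 for DNASE1L3, -0.81 to 0.39 for NR4A2, -0.99 to 0.22 for EGR3, -0.17 to 0.41 for CTSK, -1.10 to 0.30 for ATF3, -0.66 to 0.49 for FN1, -0.31 to 0.68 for C1QC, -0.71 to 0.0650 for PLAU, -0.34 to 0.34 for IL18 and -0.24 to 0.81 for C1QB. For the change they ranged from -0.76 to 0.17 for CSF3R, -0.58 to 0.52 for MMP9, -0.40 to 0.12 for ITGAM, -0.70 to 0.31 for SERPINA1, -0.23 to 0.0467 for ENSCAFG00000005717 and -0.000216 to 0.15 for ENSCAFG00000030763.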
